A study of Sus scrofa with 10 samples.

Results

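The insulin-like growth factor (IGF) system was followed in the oviduct of the sow through 10 listed genes: the ligands IGF1 and IGF2, the receptors IGF1R and IGF2R, and the binding proteins IGFBP1 to IGFBP6. Members were taken by gene symbol from the annotation of the array. Of the 10 genes, 9 had at least 1 feature (a spot of the array), and together they held 22 of the 45220 features. IGF2R, the receptor that clears IGF2 from the cell surface, matched no feature and was dropped. Tissue came from the ampullary-isthmic junction of 10 cyclic Landrace x Large White hybrid sows in spontaneous oestrus, without hormonal induction. Of these, 5 had been artificially inseminated with fresh diluted boar semen and 5 had not been inseminated, and the oviducts of both groups were removed after ovulation. Whole pieces of the oviduct were frozen without flushing, so that epithelium, stroma, muscle and whatever lay in the lumen entered each RNA sample. Each sow was hybridized to 1 single-colour array, and the labels name every sow, inseminated or not, by AI and a number.

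IGF1 and IGF2 are small secreted hormones related to insulin that promote growth, survival and metabolism of cells through the tyrosine kinase receptor IGF1R, which acts mainly by the PI3K-AKT and RAS-MAPK routes. In the fluid outside cells most of the ligand is held by the 6 IGFBPs, which lengthen its life, keep it from the receptor or release it after cleavage by proteases. In the oviduct the system is known as a source of growth factors for the lining cells and for the early embryo.

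The deposited values were log2 intensities, so that a difference of 1 stands for a doubling of the signal. They ran between 3.569 and 15.996 with a median of 7.09. Because probes bind their targets with different strength, each gene was compared only with itself across sows. The features of a gene were averaged for its level, and they carry the letters A, B and so on in falling order of mean signal. Differences are inseminated minus non-inseminated means. The array of the non-inseminated sow AI1061 stood apart from the rest. Its correlation with the other arrays over all features was 0.927 to 0.945, whereas the other 9 arrays correlated with each other at 0.966 to 0.986. In AI1061 the mean deviation of 8 secretory epithelium markers from their means over the sows was -0.611 (-0.174 to 0.261 in the other sows), that of 6 stroma markers 0.851 (-0.926 to 0.572) and that of 3 ciliated cell markers -1.12 (-0.277 to 0.527). Although AI1061 is labelled as not inseminated, the sperm protamine PRM2 was at 12.52 in it, and at 6.60 to 6.86 in the other 9 sows, inseminated ones included. The other 2 measured sperm markers did not stand out in AI1061, with PRM1 at 6.93 (6.66 to 7.27 in the other sows) and ACR at 6.70 (6.53 to 7.06). The sow was kept in the group of its label. Differences without it are also given for most member genes and some pathway genes. The SDs and the differences of single features include it. The oviductal glycoprotein OVGP1 was at 15.94 in inseminated and 15.96 in non-inseminated sows. That is close to the highest value of 15.996, so its near equality says little about a difference. Other secretory epithelium markers were dimmer, down to PIGR at 8.05 in inseminated and 7.54 in non-inseminated sows. Of the 8, 2 had a higher mean in inseminated sows, PIGR (0.51) and CLU (0.42). The rest had a lower one, by -0.01 (OVGP1) to -0.14 (EPCAM).

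None of the 22 IGF system features and none of the 9 genes passed an adjusted p of 0.05 in limma between inseminated and non-inseminated sows. The background was the same, as 0% of all features and 0% of all genes passed. Without adjustment, 1 of the 22 features (IGFBP2 feature A) and 0 of the 9 genes had a limma p under 0.05, beside 3.37% of all features and 2.59% of all genes. By direction, 2.08% of all features were higher and 1.3% lower in inseminated sows at that p, and 1.47% of all genes were higher and 1.12% lower. The IGFBP2 feature was among the higher. Without AI1061, 0 features and 0 genes passed after adjustment, and 4 member features (3 higher, 1 lower) had an unadjusted limma p under 0.05, as did 7% of all features (1346 higher, 1819 lower). Of the 9 genes 1, IGFBP6, was then under that p, beside 7.74% of all genes. In no member did the 2 groups of sows lie wholly apart. They did so in 0.723% of all features and 0.461% of all genes, shares so low that their absence among so few members says little. Among the members 4 genes had a higher and 5 a lower mean in inseminated sows, with a median difference of -0.05. Over all 4560 genes 46.8% were higher and the median was -0.01, and over all features 50.3% were higher. The adjusted p in limma was 0.999 for every member gene. With 5 arrays in each group the number of sows limits how precisely any difference is known, and in RNA of whole tissue fewer cells of a type and less RNA per cell cannot be told apart.

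**Figure D1:**
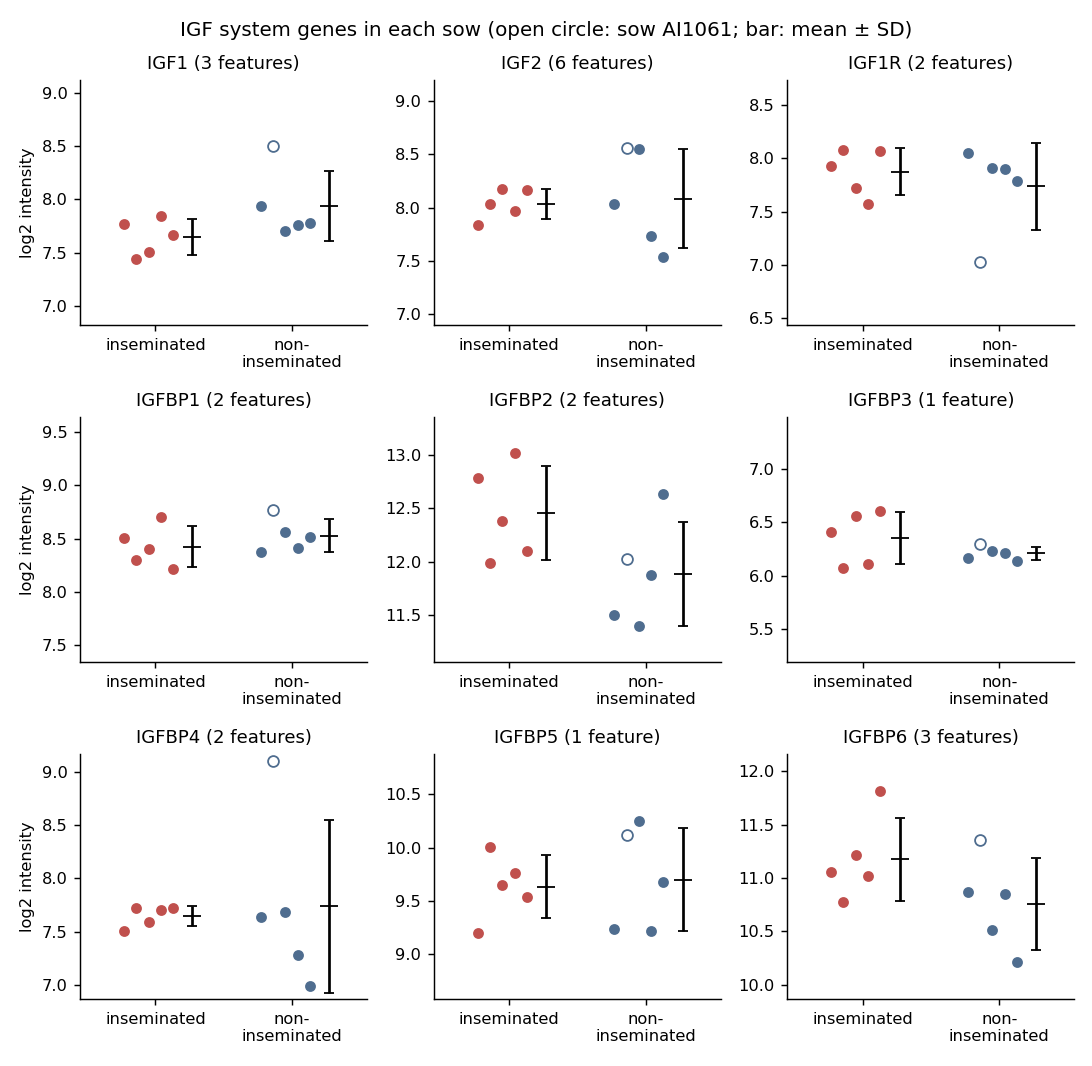
Levels of the 9 measured IGF system genes (log2 intensity, mean over the features of each gene) in 5 inseminated sows at the left and 5 non-inseminated sows at the right of each panel. Points are sows, the open circle is AI1061, and bars show mean ± SD; every panel spans the same number of log2 units, and the groups overlap in all 9.

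IGF1, the ligand whose supply follows growth hormone, averaged 7.65 ± 0.17 in inseminated sows and 7.93 ± 0.33 in non-inseminated sows (SD, n = 5 each). The 5 inseminated sows had 7.77, 7.44, 7.51, 7.85 and 7.66, against 7.93, 8.50, 7.70, 7.76 and 7.78 in the 5 non-inseminated sows. Only 1 inseminated sow, AI1059, lay above the median of the non-inseminated sows, and the highest value was that of AI1061. The difference was -0.29 (SE 0.16, 95% interval -0.63 to 0.06), with p = 0.0936 in limma and p = 0.0952 in the exact two-sided permutation test. Without AI1061 it was -0.15. All 3 IGF1 features had a lower mean in inseminated sows (-0.30, -0.43 and -0.13 for features A, B and C). They did not follow each other closely over the sows, with r between 0.279 and 0.625 and none past the threshold in permutation tests adjusted over the 25 pairs of features of the same gene. Feature B was at 8.93 in AI1061 and at 7.06 to 7.57 in the other 9 sows.

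IGF2, the ligand of fetal growth, had nearly the same mean in both groups, at 8.04 ± 0.14 in inseminated sows and 8.08 ± 0.46 in non-inseminated sows (SD, n = 5 each). The difference was -0.05 (SE 0.20, interval -0.48 to 0.39, exact permutation p = 0.849). The SD was larger in non-inseminated sows, a contrast that was not tested. Inseminated sows held 7.84, 8.04, 8.17, 7.97 and 8.16, against 8.04, 8.56, 8.55, 7.74 and 7.54 in non-inseminated sows. Both extremes thus lay among non-inseminated sows, with AI1061 and AI991 high and AI992 low. The sign of the difference turned when AI943, AI1061 or AI991 was left out.

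Of the 6 IGF2 features, A, C, D and F tracked each other over the sows and B and E did not. The 6 pairs among A, C, D and F had r of 0.706 to 0.972, of which 5 passed in permutation tests over 10 sows with adjustment over the 25 pairs, and the remaining pair, C with F, had an adjusted p of 0.0629. The closest pair was A with C (r = 0.972, rho = 0.988, permutation p = 1e-05, the smallest that 100000 resamples can give). Without AI1061 all 6 pairs passed, with r of 0.868 to 0.988. Features B and E had r of -0.601 to 0.265 with those 4, although the annotation ties B and E to the same transcript record as C, D and F. Feature A, the widest of them, held 8.35, 9.06, 9.26, 8.64 and 9.23 in inseminated sows, against 9.14, 10.25, 9.95, 8.27 and 7.65 in non-inseminated sows. Its SD within groups was 0.826, larger than that of 97.6% of all features. Feature E stayed between 7.10 and 7.64 over the same 10 sows. The SD within groups was 0.342 for the mean over the 6 features, against 0.826, 0.614, 0.449 and 0.304 for features A, C, D and F.

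**Figure D2:**
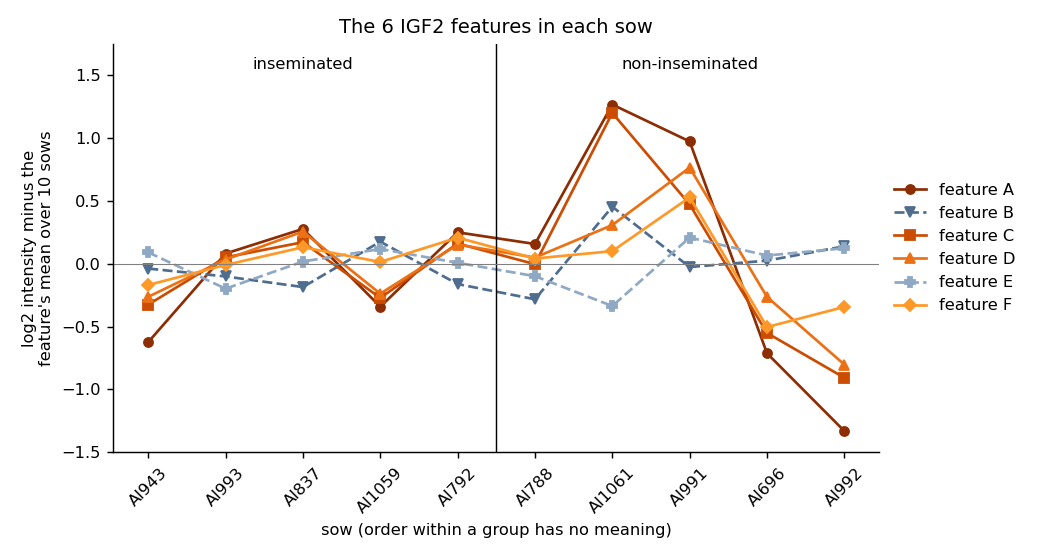
Signal of each IGF2 feature in each sow as its deviation from that feature's mean over 10 sows (log2), with inseminated sows at the left and non-inseminated sows at the right. Features A, C and D (solid lines) are highest in AI1061 and AI991 and lowest in AI992, F (solid line) is highest in AI991 and lowest in AI696, and B and E (broken lines) do not follow them, although B is highest in AI1061.

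Of the 45 pairs of a member gene and a list of cell type markers, IGF2 with smooth muscle had the strongest correlation. Over the 10 sows its level rose with the mean deviation of 4 smooth muscle markers of 8 listed (ACTA2, DES, CNN1 and MYLK; r = 0.905, rho = 0.891, permutation p = 0.00023, adjusted p = 0.0103 over the 45 pairs). The relation remained past the threshold on deviations from the group means (r = 0.913, adjusted permutation p = 0.009) and without AI1061 (r = 0.937, adjusted permutation p = 0.0099). Without AI1061 and AI991, the sows farthest from the median of IGF2, r was 0.931. IGF2 also rose with the 6 stroma markers (r = 0.878, rho = 0.903, adjusted permutation p = 0.0247), but without AI1061 this pair had r = 0.822 and an adjusted permutation p of 0.225. With the 8 secretory epithelium markers the relation was inverse (r = -0.767, adjusted permutation p = 0.0598; rho = -0.903, adjusted permutation p = 0.0185), and without AI1061 r was -0.667 (adjusted permutation p = 0.322). Smooth muscle markers were at -0.242, -0.268, 0.610, -0.474 and 0.547 in inseminated sows, against 0.288, 0.546, 0.979, -0.748 and -1.24 in non-inseminated sows. The low sow for IGF2, AI992, was also the lowest for smooth muscle and the high sow AI991 the highest. All these lists lie in the same 10 tissue pieces, and the part of muscle content in the spread of IGF2 was not tested.

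**Figure D3:**
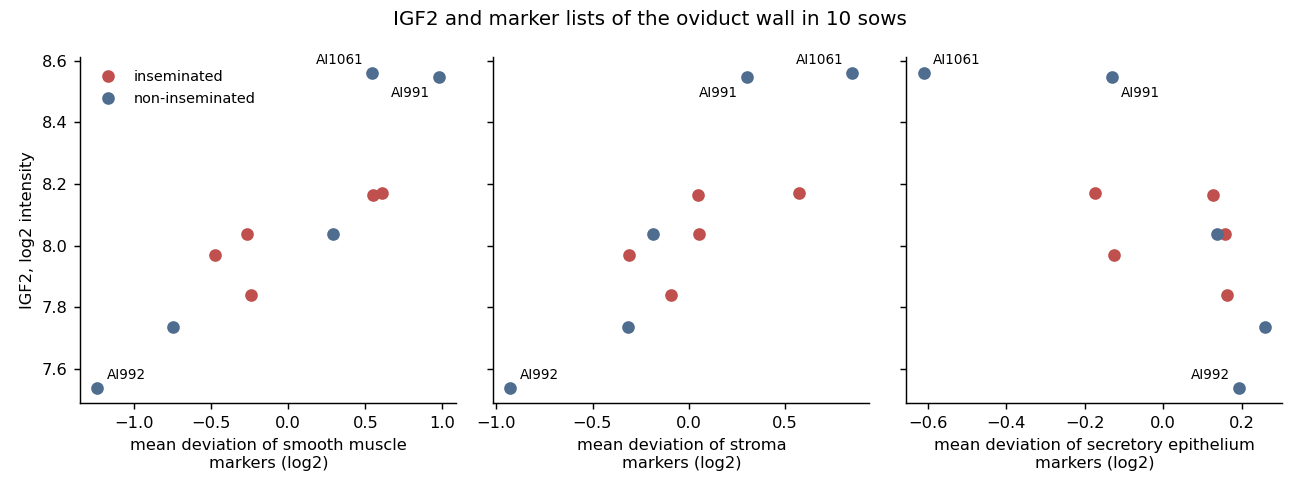
IGF2 level (log2 intensity) of each sow against the mean deviation (log2) of smooth muscle, stroma and secretory epithelium markers, with inseminated sows in red and non-inseminated sows in blue. The points rise with smooth muscle (r = 0.905) and stroma (r = 0.878) and fall with secretory epithelium (r = -0.767).

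IGF1R, the receptor through which both ligands act, averaged 7.87 ± 0.22 in inseminated sows and 7.74 ± 0.40 in non-inseminated sows (SD, n = 5 each). The sows held 7.93, 8.07, 7.72, 7.58 and 8.07 in the inseminated group, against 8.05, 7.03, 7.91, 7.90 and 7.79 in the non-inseminated group. The sow at 7.03 was AI1061, and the other 9 lay between 7.58 and 8.07. The difference of 0.14 (SE 0.19, interval -0.28 to 0.55, exact permutation p = 0.651) turned to -0.04 without AI1061. The features of IGF1R correlated at 0.843 over 10 sows (rho = 0.758, adjusted permutation p = 0.0171) and at 0.572 without AI1061 (adjusted permutation p = 0.193). IGF1R was not tied to secretory epithelium markers past the threshold (r = 0.873, rho = 0.430, adjusted permutation p = 0.0598), but it was on deviations from the group means (r = 0.875, adjusted permutation p = 0.0407). Without AI1061, the lowest sow in both, r was 0.586 (adjusted permutation p = 0.455).

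IGFBP2 had the largest difference among the members, though it did not pass the test. This binding protein has a preference for IGF2 and can attach to integrins. Its level averaged 12.45 ± 0.44 in inseminated sows and 11.89 ± 0.49 in non-inseminated sows (SD, n = 5 each), a difference of 0.57 (SE 0.26, interval -0.01 to 1.14) or 1.48-fold. The limma p was 0.0540 and the exact permutation p was 0.103. Inseminated sows held 12.78, 11.99, 12.39, 13.02 and 12.10, against 11.50, 12.03, 11.40, 11.88 and 12.63 in non-inseminated sows. Without AI1061 the difference was 0.60. All 5 inseminated sows lay above the non-inseminated median, and the groups overlapped because AI992 and AI1061 lay above the lowest inseminated sow. Its 2 features gave nearly the same picture (r = 0.977 over 10 sows, rho = 0.976, adjusted permutation p = 8.33e-05), with differences of 0.61 and 0.53. Feature A was the only member feature under an unadjusted limma p of 0.05 (p = 0.0368, adjusted p = 0.999, exact permutation p = 0.0794). Leaving out 1 sow at a time gave differences of 0.42 (without AI1059) to 0.75 (without AI992).

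IGFBP6, which binds IGF2 far more strongly than IGF1, showed the next largest difference. It averaged 11.18 ± 0.39 in inseminated sows and 10.76 ± 0.43 in non-inseminated sows (SD, n = 5 each), a difference of 0.42 (SE 0.23, interval -0.09 to 0.93, limma p = 0.100, exact permutation p = 0.159). Inseminated sows held 11.05, 10.78, 11.21, 11.02 and 11.81, against 10.87, 11.35, 10.51, 10.85 and 10.21 in non-inseminated sows. Sow AI792 was the highest of the inseminated sows and AI1061 the highest of the non-inseminated sows. The difference was 0.26 without AI792 and 0.57 without AI1061. Features A and B (0.53 and 0.55) tracked each other with r = 0.985, and feature C had a smaller difference of 0.17. IGFBP6 was thus higher in all 3 features, none of which passed the test.

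**Figure D4:**
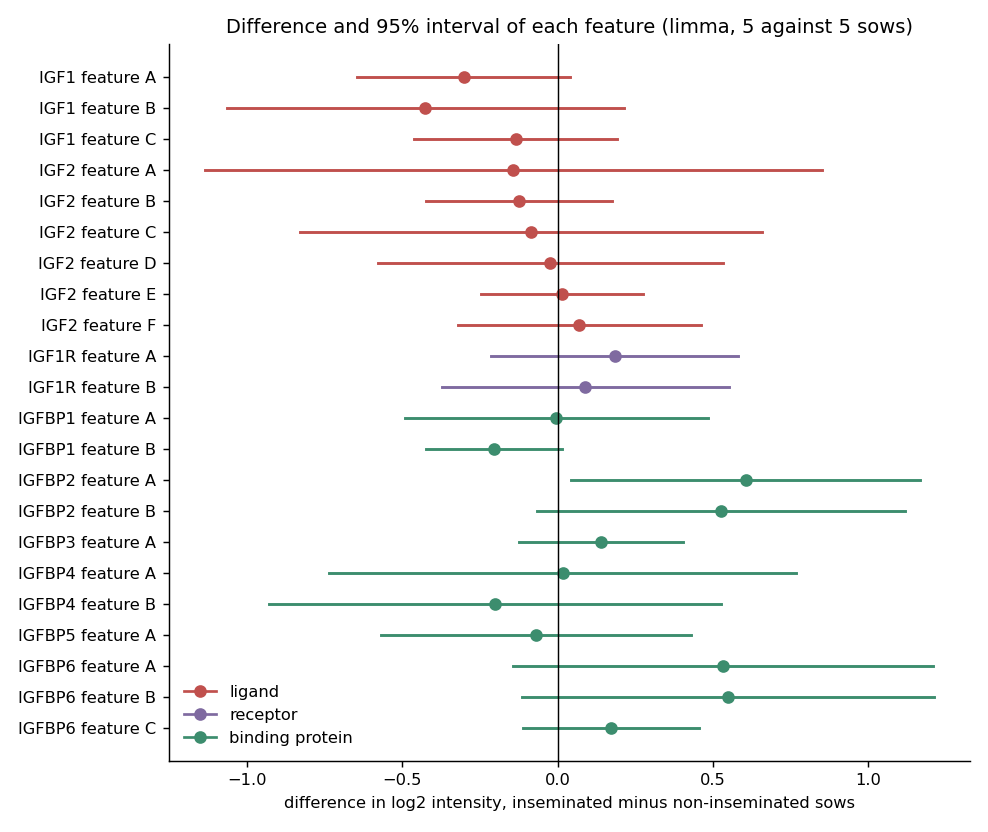
Difference in log2 intensity, inseminated minus non-inseminated sows, of each of the 22 features with its 95% interval from limma, coloured by role. The interval of IGFBP2 feature A alone lies above 0 (0.04 to 1.17), before any adjustment for the number of features.

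The other binding proteins had differences within 0.15 of 0. Leaving out 1 sow moved IGFBP1 between -0.17 (without AI1059) and -0.04 (without AI1061) and IGFBP3 between 0.08 (without AI792) and 0.21 (without AI993). IGFBP1, known as a secreted product of liver and decidua, averaged 8.42 ± 0.19 in inseminated sows and 8.53 ± 0.16 in non-inseminated sows, a difference of -0.10 (SE 0.12). Its features went different ways (r = -0.345): A differed by 0.00 and B by -0.20 (SE 0.10). Feature B was dim, at 6.76 to 6.89 in inseminated sows and 6.86 to 7.31 in non-inseminated sows, with a limma p of 0.0636 (adjusted p = 0.999) and an exact permutation p of 0.0159. IGFBP3, the main carrier of IGFs in blood, lay close to the lowest signals of the array in all sows, at 6.35 ± 0.25 in inseminated sows and 6.21 ± 0.06 in non-inseminated sows (SD, n = 5 each), where its mean exceeded that of only 0.958% of all features. Whether this feature measured IGFBP3 RNA at all cannot be told from its level.

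IGFBP4, which restrains IGF action until it is cut by the protease PAPPA, averaged 7.65 ± 0.10 in inseminated sows and 7.74 ± 0.81 in non-inseminated sows (SD, n = 5 each). The narrow range of 7.504 to 7.724 in inseminated sows stood beside 7.64, 9.10, 7.69, 7.28 and 6.99 in non-inseminated sows. The value of 9.10 belonged to AI1061. The difference was -0.09 (SE 0.32, interval -0.80 to 0.62, exact permutation p = 0.913), and without AI1061 it was 0.25. The narrow range came from averaging, since feature A ran from 7.63 to 8.54 and feature B from 6.87 to 7.38 in inseminated sows. Its features correlated at 0.773 over 10 sows, but at 0.190 without AI1061. IGFBP5, a binding protein that adheres to extracellular matrix, averaged 9.63 ± 0.30 in inseminated sows and 9.70 ± 0.48 in non-inseminated sows (SD, n = 5 each), with a difference of -0.07 (SE 0.23, interval -0.57 to 0.43, exact permutation p = 0.770) that changed sign without AI943, AI1061 or AI991.

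Members differed in how much they varied among sows of the same group. The SD within groups was 0.577 for IGFBP4, larger than in 93.4% of all genes, and 0.465 for IGFBP2 (88.2%), 0.409 for IGFBP6 (83.9%), 0.4003 for IGFBP5 (83.2%) and 0.342 for IGF2 (76.3%). IGF1R (0.326, 73.6%) and IGF1 (0.261, 60.2%) came next. IGFBP3 (0.179, 33.7%) and IGFBP1 (0.174, 31.4%) varied least, the first of these being close to the lowest signals. The SDs of IGFBP4, IGF1R and IGF1 rest in part on AI1061. That sow was at 9.10 for IGFBP4, with the other non-inseminated sows at 6.99 to 7.69. For IGF1R it was at 7.03 (others 7.79 to 8.05) and for IGF1 at 8.50 (others 7.70 to 7.93). The order of the members given here is that with AI1061 included.

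Ligands were set against binding proteins within each sow, as the mean of IGF1 and IGF2 minus the mean of the 6 IGFBPs. The number itself depends on the probes and only its spread over sows can be read, and since it is a score over chosen members it was given no test. It averaged -1.44 ± 0.03 in inseminated sows and -1.13 ± 0.17 in non-inseminated sows (SD, n = 5 each), a difference of -0.31. Inseminated sows held -1.44, -1.40, -1.46, -1.48 and -1.42, against -0.98, -1.08, -0.98, -1.23 and -1.37 in non-inseminated sows, so that the groups did not overlap, with AI993 (-1.40) and AI992 (-1.37) as the closest sows. The mean of the ligands alone differed by -0.17 and that of the binding proteins alone by 0.14, and the groups overlapped in both.

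The balance was also taken for each ligand alone. IGF1 minus the IGFBP mean was -1.63 ± 0.13 in inseminated sows and -1.20 ± 0.14 in non-inseminated sows (SD, n = 5 each), a difference of -0.43. Inseminated sows held -1.47, -1.70, -1.79, -1.54 and -1.67, against -1.03, -1.11, -1.41, -1.22 and -1.25 in non-inseminated sows, again without overlap. For IGF2 the groups overlapped, with -1.24 ± 0.15 in inseminated sows and -1.05 ± 0.35 in non-inseminated sows (difference -0.19). Leaving out 1 sow moved the IGF2 difference between -0.30 (without AI992) and -0.07 (without AI991), while that of IGF1 ran from -0.48 to -0.39, and the difference between the ligands was not tested. Among the 12 single pairs of a ligand and a binding protein, the groups did not overlap in 1, IGF1 minus IGFBP6 (difference -0.71). No share over all pairs of genes, or over other sets of genes summed like the balances, was computed. How often such differences do not overlap is thus not known here.

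The gap between groups in these balances was narrow and rested on how the genes were summed. For both balances that did not overlap, leaving out any of the 10 sows, AI1061 included, could not bring overlap or turn the sign. Those runs were therefore no test of the gap. With the highest-mean feature in place of the mean over features, the groups overlapped in both (differences -0.43 and -0.51), and the IGF2 balance differed by -0.35. With the median of the features, they overlapped for the ligand mean (-0.39) and not for IGF1 (-0.59). For the ligand mean the groups also overlapped when IGFBP4, IGFBP5 or IGFBP6 was taken out of the IGFBP mean, and for IGF1 when IGFBP2 or IGFBP6 was taken out. The sign was negative in all of these. The balances measured RNA, not the protein that is free to bind the receptor.

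**Figure D5:**
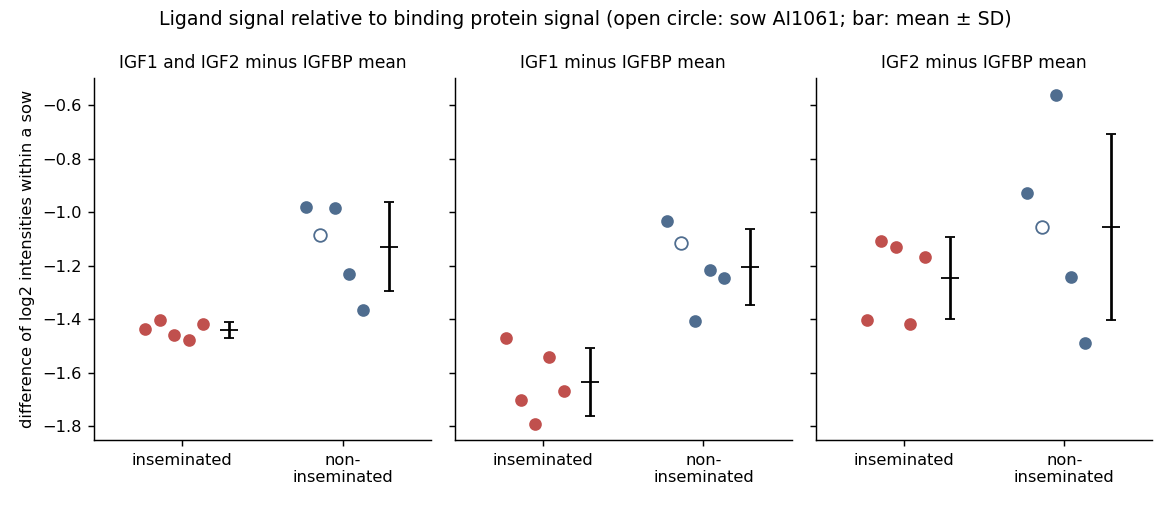
Mean log2 intensity of the ligands (both, IGF1 alone, IGF2 alone) minus that of the 6 binding proteins within each sow, with inseminated sows at the left of each panel and non-inseminated sows at the right. Points are sows, the open circle is AI1061 and bars show mean ± SD; the groups lie apart in the first and second panels and overlap in the IGF2 panel.

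Members were also compared with each other over the 10 sows. Of 36 pairs, 2 passed in permutation tests of Pearson's r with adjustment over the pairs. IGF2 and IGFBP4 went together (r = 0.772, rho = 0.709, permutation p = 0.0026, adjusted p = 0.0468). IGF1R and IGFBP1 went opposite ways (r = -0.833, rho = -0.806, permutation p = 0.00078, adjusted p = 0.0281). Neither pair passed by Spearman's rho after adjustment (permutation p = 0.328 and p = 0.254), on deviations from the group means (adjusted permutation p = 0.0783 for each) or without AI1061 (adjusted permutation p = 0.155 for each, r = 0.786 and r = -0.778). Without the sows farthest from the median of the first gene, r was 0.908 for IGF2 with IGFBP4 and -0.588 for IGF1R with IGFBP1. IGFBP2 and IGFBP5 are next to each other in the pig genome with no annotated gene between them, as are IGFBP1 and IGFBP3. IGFBP2 and IGFBP5 did not vary together past the threshold (r = -0.194). For IGFBP1 and IGFBP3 the low signal of IGFBP3 leaves no such comparison.

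The genes whose pattern over the sows was most like that of each member were listed by Pearson's r on deviations from the group means, over 10 sows and the 2735 other genes above the 40th percentile of mean level (2736 for IGFBP3). With so many genes searched, high values are to be met in any case, and they are given as a description. For IGF2 they were UNC45A (r = 0.981), LMCD1 (0.979) and SPARCL1 (0.977). UNC45A is a chaperone of myosin, LMCD1 a LIM domain protein of muscle and SPARCL1 a matrix protein. Without AI1061 UNC45A (0.985) and SPARCL1 (0.973) stayed among the closest 3, joined by KCNMB1 (0.976), a potassium channel subunit of smooth muscle. For IGFBP6 the closest were the RNA helicase DDX21 (0.970), the protease inhibitor CST3 (0.921) and SLA-DQB1 (0.909), a class II histocompatibility gene, of which DDX21 remained without AI1061 (0.969). For IGFBP2 they were FAU (0.947), a ribosomal protein fusion, the myosin MYO1E (0.945) and the glycosyltransferase ALG2 (0.945), the last pair remaining without AI1061 (0.951 and 0.956).

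For 3 members no gene remained among the closest 3 without AI1061. IGF1 was closest to CHSY1 (0.919), DSG1 (0.918) and MDFI (0.914), IGF1R to ATAD1 (0.970), EXOSC3 (0.967) and CIB1 (0.967), and IGFBP4 to GATA2 (0.979), LIPE (0.976) and GNA11 (0.966). IGFBP1 was closest to KLF17 (0.957), SLC39A14 (0.942) and NLN (0.938), IGFBP3 to TGFB1 (0.857), C2 (0.841) and ZCCHC8 (0.815), and IGFBP5 to AK4 (0.853), LOC100511545 (0.805) and SLC25A6 (0.792). Of these last lists, KLF17, C2 and LOC100511545 remained without AI1061, 1 gene for each member.

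Around the members, 63 further genes of the pathway were listed by role, and 34 of them were measured. None passed an adjusted p of 0.05 in limma, none had an unadjusted limma p under 0.05, and 19 were higher and 15 lower in inseminated sows, with a median difference of 0.02. Without AI1061 15 were higher and 19 lower, the median was -0.02, and 2 had an unadjusted limma p under 0.05, GHR with a difference of 0.32 and MMP2 with 0.71, beside 7.74% of all genes. When single sows were left out, the sign turned for IGFBP7, IRS1, STC2, MAP2K1 and NRAS among the genes named here. In each role the genes named here had the smallest unadjusted p. Among other binding partners, 3 of 6 were measured. IGFALS, the subunit that stabilises the IGF complex of blood, had 6.84 ± 0.24 in inseminated sows and 7.13 ± 0.40 in non-inseminated sows (SD, n = 5 each). The difference of IGFALS was -0.29 (SE 0.19), and -0.11 without AI1061. IGF2BP2, a protein that binds IGF2 messenger RNA, differed by 0.15 (SE 0.10), and IGFBP7, a matrix protein of low affinity for IGFs, by 0.07 (SE 0.29).

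Proteases and inhibitors that act on IGFBPs were measured in 7 of 12 cases. Of the 7, 6 had a higher mean in inseminated sows, beside 46.8% of all genes, and none passed the test. The 7 include both proteases and inhibitors, so a shared sign has no single meaning. MMP7, a secreted epithelial protease, had the largest difference of 0.90 (SE 0.64, interval -0.51 to 2.31, exact permutation p = 0.310). It ran from 6.55 to 10.54 in inseminated sows and from 6.57 to 7.24 in non-inseminated sows, and the difference was 0.21 without AI837. MMP2, a gelatinase of stromal cells, averaged 11.32 ± 0.48 in inseminated sows and 10.92 ± 0.78 in non-inseminated sows (SD, n = 5 each), a difference of 0.41 (SE 0.36). The protease ADAM28 differed by 0.19 (SE 0.20), and by 0.03 without AI1061. The PAPPA inhibitor STC2 differed by 0.08 (SE 0.11). STC2 was dim, at 6.67 in inseminated and 6.58 in non-inseminated sows, under the 40th percentile of feature means (6.863).

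Of the growth hormone axis, which governs IGF1 production in liver, all 8 listed genes were measured and 3 were higher in inseminated sows. The receptor GHR differed by 0.16 (SE 0.19), its kinase JAK2 by 0.17 (SE 0.24), the transcription factor STAT5A by -0.13 (SE 0.12) and the feedback inhibitor SOCS3 by -0.06 (SE 0.09). In the insulin branch 4 of 8 genes were measured, with 2 higher and 2 lower. The docking protein IRS1 differed by 0.08 (SE 0.17), the adaptor SHC1 by -0.19 (SE 0.21) and the receptor inhibitor GRB10 by -0.07 (SE 0.14). INS, the insulin gene, differed by 0.19 (SE 0.12). It was dim, at 6.76 in inseminated and 6.57 in non-inseminated sows, under the 40th percentile of feature means (6.863).

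Downstream of the receptor, 9 of 19 PI3K, AKT and mTOR genes and 3 of 10 RAS and MAPK genes were measured. In the first of these 5 were higher and 4 lower, with a median difference of 0.03. The kinase RPS6KB1, which acts on ribosomal protein S6, differed by 0.14 (SE 0.12). FOXO1, the transcription factor that AKT keeps out of the nucleus, differed by 0.25 (SE 0.23). The kinase GSK3B differed by -0.13 (SE 0.12), and by -0.04 without AI1061. PDPK1, the kinase that activates AKT, differed by 0.61 (SE 0.59). It had a wide range of 4.67 to 7.66 in inseminated sows and 5.23 to 6.83 in non-inseminated sows. Leaving out 1 sow gave 0.27 (without AI993) to 1.02 (without AI1059). PDPK1 was dim, at 6.33 in inseminated and 5.73 in non-inseminated sows, under the 40th percentile of feature means (6.863). A difference at such low signals says little. In the MAPK route GRB2 differed by -0.17 (SE 0.15), MAP2K1 by -0.04 (SE 0.16) and NRAS by 0.00 (SE 0.13). These transcripts code for components of the routes, and the activity of the routes was not measured.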

How the data were processed

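Oviduct RNA was measured on 10 arrays, from 5 inseminated sows and 5 that were not inseminated, each sow being a replicate. The authors read spots with GenePix Pro 6.0, and their methods name normexp background correction (offset 10) followed by quantile normalization. The values they deposited are log2 intensities, which were analysed without further scaling. Sorted values differed between arrays by at most 0.0537, so any shift common to most genes had been removed. Every array column was mapped to a sow. Control spots are not marked in the table and all features were tested. Symbols came from the annotation of the array, updated by accession to Sscrofa11.1 names in 5913 features (443 changed), and 10290 features had 1 symbol while 34930 had none. Coordinates are left out, since the build behind the probes is not given in the sources used here.

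Groups were compared with limma 3.58.1 in R 4.3.3 for all 45220 features and for the mean of each of 4560 genes, with Benjamini-Hochberg adjustment over all of them, after a check on simulated data. Single genes were also tested over all 252 splits of 5 against 5 sows. Correlations were tested with 100000 permutations in Python 3.11.15 with numpy 2.4.6. Members and gene lists were chosen with earlier results of these data known. The rule for names took all members with a feature, up to 4 genes of each pathway role by unadjusted p and, for each member, the 3 genes most like it above the 40th percentile of mean level. Alternatives were repeated quantile normalization, centring on the median or 75th percentile, leaving out features under the 40th percentile, array weights, eBayes with an intensity trend and robust prior, the highest-mean or median feature, and leaving out each sow. The correlations and most alike genes without AI1061, the counts of unadjusted p and the balances without single binding proteins were added after the values had been seen. Blood progesterone was not analysed here.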

Additional observations from a re-analysis of the deposited data

Results flagged for a closer look

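In 6 of the 64 sets of 5 values tested for a value far from the rest (the gap to the nearest sow being over 0.71 of the whole range), a sow stood apart, and in all 6 it was the non-inseminated sow AI1061. For a single set chance gives this about 1 time in 20. The 64 sets are not independent, since gene means stand beside the features they average and all come from the same sows. The count of 6, which covers IGF1, IGF1R and IGFBP1 only, therefore cannot be set against that rate. For IGF1 the mean over features was 8.50 in AI1061, the highest of the non-inseminated sows, with the others at 7.70 to 7.93, and IGF1 feature B was 8.93, with the others at 7.13 to 7.57. For IGF1R the mean over features was 7.03, the lowest of its group, with the others at 7.79 to 8.05, feature A was 7.21 (others 7.85 to 8.07) and feature B was 6.85 (others 7.72 to 8.03). IGFBP1 feature A was 10.7 in AI1061, the highest of its group, with the lowest of the others at 9.82. Over all sows it was not apart, as the inseminated sow AI1059 was at 10.6. No inseminated sow and no other non-inseminated sow stood apart in this way. In the same array the markers of secretory and ciliated epithelium were low, and their part in these values was not tested.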

How the results depend on the processing

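The counts past the adjusted threshold were 0 for member features, member genes and pathway genes under every alternative run. Member differences kept their sign in 68 of 71 values under other settings and in 82 of 90 when a sow was left out, and the filter on low features left no value for IGFBP3. IGF1R turned to -0.0058 with array weights and -0.040 without AI1061. IGFBP4 turned to 0.084 with array weights, 0.017 with the highest-mean feature and 0.25 without AI1061. IGF2 turned to 0.0011 without AI943, 0.071 without AI1061 and 0.068 without AI991, and IGFBP5 to 0.037, 0.036 and 0.068 without the same sows. Leaving out each sow gave ranges of -0.35 to -0.15 for IGF1, -0.18 to 0.07 for IGF2, -0.04 to 0.21 for IGF1R, -0.17 to -0.04 for IGFBP1, 0.42 to 0.75 for IGFBP2, 0.08 to 0.21 for IGFBP3, -0.28 to 0.25 for IGFBP4, -0.19 to 0.07 for IGFBP5 and 0.26 to 0.57 for IGFBP6. At an unadjusted limma p under 0.05 lay 1 member feature (3.37% of all features), 6 with array weights (5.7%) and 4 without AI1061 (7%). There were 2 without AI993 (2.89%) or AI992 (3.56%), and 1 without AI792 (2.99%). Without AI1059 there was also 1 (2.97%), lower in inseminated sows. There were 0 without AI943, AI837, AI788, AI991 or AI696 (2.97% to 3.48% of all features). Member genes at that p were 0 (2.59% of all genes), 2 with array weights (IGFBP2 and IGFBP6, beside 6.86%), and 1 with the highest-mean feature (2.74%). There was also 1 without AI993 (2.17%), AI792 (2.08%), AI1061 (7.74%) or AI992 (2.7%). The balance of IGF1 was -0.59 with the median of features, and -0.48 to -0.39 when a sow was left out, and that of IGF2 -0.30 to -0.07. Pairs of members past the threshold numbered 2, and 0 either on deviations from group means or without AI1061. Pairs of a member and a marker list numbered 2, with 4 on deviations from group means and 1 without AI1061. No paired analysis was possible because the labels give no replicate numbers that sows of the 2 groups share. Intervals were wide with 5 sows in each group (-0.80 to 0.62 for IGFBP4), so the size of a difference is known only roughly. Signals near the lowest of the array, as for IGFBP3, have compressed differences.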
